A study of Mus musculus with 4 samples.

Results

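Transcripts of 8 mouse histone genes were followed in single cells of intracranial breast tumours. The genes were Hist1h2ap and Hist1h2ae, which encode core histone H2A, Hist1h2bc, which encodes core histone H2B, Hist1h1b, Hist1h1c and Hist1h1e, which encode linker histones H1.5, H1.2 and H1.4, H1f0, which encodes the replacement linker histone H1.0, and H2afz, which encodes the variant H2A.Z. They were found by symbol among 32285 annotated genes, and all 8 had molecules in the files. Hist1h2ap had been picked because it stood among the genes with the highest ratio of SCDi to vehicle in tumour cells, microglia and T cells, and the other 7 as histone genes beside it, so the ratio between the libraries is given below as a description and is not evidence for itself. H2afz is neither replication-dependent nor a linker histone gene, and H1f0 is a linker histone gene that is not tied to replication.

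Immunocompetent C57BL/6 females carried intracranial tumours grown from EO771, a mouse mammary cancer cell line, made to express GFP. Mice received either SCDi, the label's name for the treatment in a study of the fatty acid desaturase SCD, or vehicle, for 14 days. The brains of 3 mice per treatment were pooled before sorting, and each pool gave a tumour library of DAPI-/CD45-/GFP+ cells and an immune library of DAPI-/CD45+/GFP- cells, sequenced as droplet 3′ libraries. The groups were thus SCDi tumour, vehicle tumour, SCDi immune and vehicle immune, with 1 library each, so nothing below has a replicate or a test, every interval is a 95% interval that covers counting error only, and treatment, pool and library cannot be told apart.

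Cells double their histones when they copy their DNA, and most core and linker histone genes are transcribed in clusters during S phase. Messages of these genes end in a short conserved stem-loop in place of a poly(A) tail, are bound there by stem-loop binding protein and are destroyed when replication stops. Replacement and variant histones such as H1.0 and H2A.Z are made from polyadenylated messages through the whole cell cycle, and H1.0 is known to collect in cells that divide little or have differentiated. A library primed on poly(A), as these were, captures such messages where they carry A-rich sequence.

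The stem-loop is shown first because it is the ending known for replication-dependent histone messages, and 4 of the 8 annotated transcripts held one and the same 16-base form of it. The sites below are transcript sequence 5′ to 3′, with the 16 bases of the stem-loop, as read near the end of the Hist1h2ap transcript and searched as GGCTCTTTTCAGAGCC, in capitals, in the mm10 build with the GENCODE M21 annotation.
Hist1h2ap: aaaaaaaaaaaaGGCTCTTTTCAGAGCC
Hist1h2ae: aacaaaGGCTCTTTTCAGAGCCattcac
Hist1h1c: ccaaaaGGCTCTTTTCAGAGCCaccact
Hist1h1e: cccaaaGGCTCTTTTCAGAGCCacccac

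These stretches lie at chr13:21833029-21833056 on the minus strand for Hist1h2ap, at chr13:23570662-23570689 on the minus strand for Hist1h2ae, at chr13:23739506-23739533 on the plus strand for Hist1h1c and at chr13:23621776-23621803 on the minus strand for Hist1h1e. Each is exonic and past the end of the coding sequence, in the 3′ untranslated part of a transcript with 1 exon. In Hist1h2ap the stem-loop began at base 464 of a 482-base transcript, 3 bases of transcript followed it, and a run of 12 A stood directly before it. In Hist1h2ae it began at base 538 of 704 and in Hist1h1c at base 705 of 1560, and in both an AATAAA polyadenylation signal followed. In Hist1h1e it began at base 762 of 1930, with 1153 bases after it and no AATAAA among them. The same 16 letters were not in the annotated transcripts of Hist1h2bc, Hist1h1b, H1f0 or H2afz, and 26 of the 67 clustered histone genes in the annotation held them. Among all 55341 genes with an annotated transcript, 29 held them. Hist1h2ap holds them by construction, as the letters were read from it. Only this exact string was searched, so a gene without it may hold another form of the stem-loop or an annotated transcript that ends before it. The transcript annotated for Hist1h1b is 743 bases long and that for Hist1h2bc is 1156 bases long over 2 exons.

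Promoters of the 3 clustered linker histone genes are shown because they share an arrangement of short motifs. The windows are the 250 bases before the RefSeq transcription start in GRCm38.p6, 5′ to 3′ on the gene's strand, with AAACACA (the H1 box), CCAAT (or ATTGG, its other strand) and TATAAA in capitals. Hist1h1b lies at chr13:21780626-21780875 on the minus strand, Hist1h1c at chr13:23738557-23738806 on the plus strand and Hist1h1e at chr13:23622559-23622808 on the minus strand.
Hist1h1b: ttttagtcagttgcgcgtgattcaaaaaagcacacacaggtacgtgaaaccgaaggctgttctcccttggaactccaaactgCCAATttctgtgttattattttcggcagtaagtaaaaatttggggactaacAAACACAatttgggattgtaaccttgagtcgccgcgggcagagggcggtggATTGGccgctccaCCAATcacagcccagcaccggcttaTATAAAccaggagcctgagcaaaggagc
Hist1h1c: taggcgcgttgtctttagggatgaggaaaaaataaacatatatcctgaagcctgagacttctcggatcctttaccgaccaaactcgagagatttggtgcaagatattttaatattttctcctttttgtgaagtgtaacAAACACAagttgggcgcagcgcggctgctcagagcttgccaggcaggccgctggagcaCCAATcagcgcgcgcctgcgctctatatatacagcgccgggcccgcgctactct
Hist1h1e: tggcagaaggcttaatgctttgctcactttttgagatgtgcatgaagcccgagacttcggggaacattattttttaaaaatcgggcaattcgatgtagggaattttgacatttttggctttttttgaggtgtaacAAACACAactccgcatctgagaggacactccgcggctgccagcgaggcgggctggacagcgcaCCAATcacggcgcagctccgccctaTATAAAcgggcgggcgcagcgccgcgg

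The H1 box began 117, 112 and 115 bases before the start in Hist1h1b, Hist1h1c and Hist1h1e, and the nearest CCAAT began 53, 54 and 52 bases before it. TATAAA began 28 bases before the start in Hist1h1b and 27 bases before it in Hist1h1e and was not in the Hist1h1c window. Searched on both strands, AAACACA was in 6.25% of 32851 RefSeq promoters of the same length, CCAAT in 33.8%, TATAAA in 12.4% and all 3 together in 0.390%. No H1 box was in the windows of Hist1h2ap, Hist1h2ae, H1f0 or H2afz. RefSeq promoters were matched for 7 of the 8 genes, all but Hist1h2bc. A match is a stretch of letters and says nothing of binding.

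Hist1h2ap, Hist1h2ae, Hist1h2bc, Hist1h1b, Hist1h1c and Hist1h1e all lie on chromosome 13, H1f0 on chromosome 15 at chr15:79028450-79030504 and H2afz on chromosome 3 at chr3:137864487-137866922. The coding sequence of Hist1h2ap is 390 bases long and identical to that of Hist1h2ao, differs from those of Hist1h2ad and Hist1h2ag by 3 bases each and from that of Hist1h2ae by 6. Molecules from these copies could be assigned to either gene or dropped, so the H2A values are uncertain between copies. In malignant cells Hist1h2ao had 51 molecules in the SCDi library and 44 in the vehicle library.

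The deposited matrices held 9034 barcodes in SCDi tumour, 7713 in vehicle tumour, 6777 in SCDi immune and 7332 in vehicle immune, with a median of 15293.5 to 41124 molecules (UMIs) per barcode and 9 to 23 barcodes shared by any pair of libraries. After filters and removal of likely doublets, 8262, 7009, 6120 and 6572 cells remained. Clusters were named from marker genes, and the class called malignant (Krt8, Krt18, Wfdc2 and Msln) held 7089 SCDi and 6117 vehicle cells. Krt8, a keratin of epithelial cells, averaged 1405 CPM (UMIs of the gene per 1000000 UMIs of the class) in malignant SCDi cells and 1487 CPM in malignant vehicle cells, and at most 3.13 CPM in any immune class. Ptprc, which encodes CD45, had 0 UMIs in malignant SCDi cells and 4 in malignant vehicle cells. Krt8, Krt18, Wfdc2 and Msln were the 4 of 12 listed epithelial markers that marked the malignant clusters, Krt7 and Cldn4 also marked 1 of them, and Epcam marked none. Malignant cells had a median of 38647 UMIs in SCDi and 43564 in vehicle, and Malat1, a nuclear RNA, averaged 2442 CPM in SCDi and 3281 CPM in vehicle. The part of depth and RNA quality in the results was not tested.

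In malignant cells all 8 histone transcripts were at a higher level in the SCDi library than in the vehicle library, and all 8 by at least 1.2-fold. Of the 6350 genes that reached 20 CPM in one of the libraries or both, 42.9% were higher in SCDi at all and 5.1% by at least 1.2-fold. These are the values that chose the genes, so the counts are read no further. The median log2 ratio was 0.55 over the 8 histone genes and -0.03 over the 6350 genes.

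Among the core histones, Hist1h2ap had 35.7 CPM in SCDi malignant cells and 19.4 CPM in vehicle malignant cells, from 10410 and 5319 UMIs, a log2 ratio of 0.89 (0.84 to 0.93). It had the highest ratio of the 6350 genes. Hist1h2ae had 61.1 CPM in SCDi and 41.9 CPM in vehicle, a log2 ratio of 0.54 (0.51 to 0.58). Hist1h2bc had 45.4 CPM in SCDi and 28.3 CPM in vehicle, a log2 ratio of 0.68 (0.64 to 0.72). It ranked 8th by ratio, and Hist1h2ae 20th.

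The linker histones spread over a wider range of ratios. H1f0, the replacement linker, had 126 CPM in SCDi malignant cells and 73.3 CPM in vehicle malignant cells, a log2 ratio of 0.78 (0.76 to 0.81), the 5th highest of the 6350 genes. Hist1h1b had 39.1 CPM in SCDi and 26.7 CPM in vehicle, a log2 ratio of 0.55 (0.51 to 0.59). Hist1h1c had 32.5 CPM in SCDi and 22.3 CPM in vehicle, a log2 ratio of 0.54 (0.50 to 0.59). The ratios of these clustered linkers overlapped in their intervals. Hist1h1e had 96.2 CPM in SCDi and 78.0 CPM in vehicle, a log2 ratio of 0.30 (0.28 to 0.33), the lowest of the 8 and ranked 224th. The variant H2afz had 992 CPM in SCDi and 694 CPM in vehicle, a log2 ratio of 0.51 (0.51 to 0.52).

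**Figure D1:**
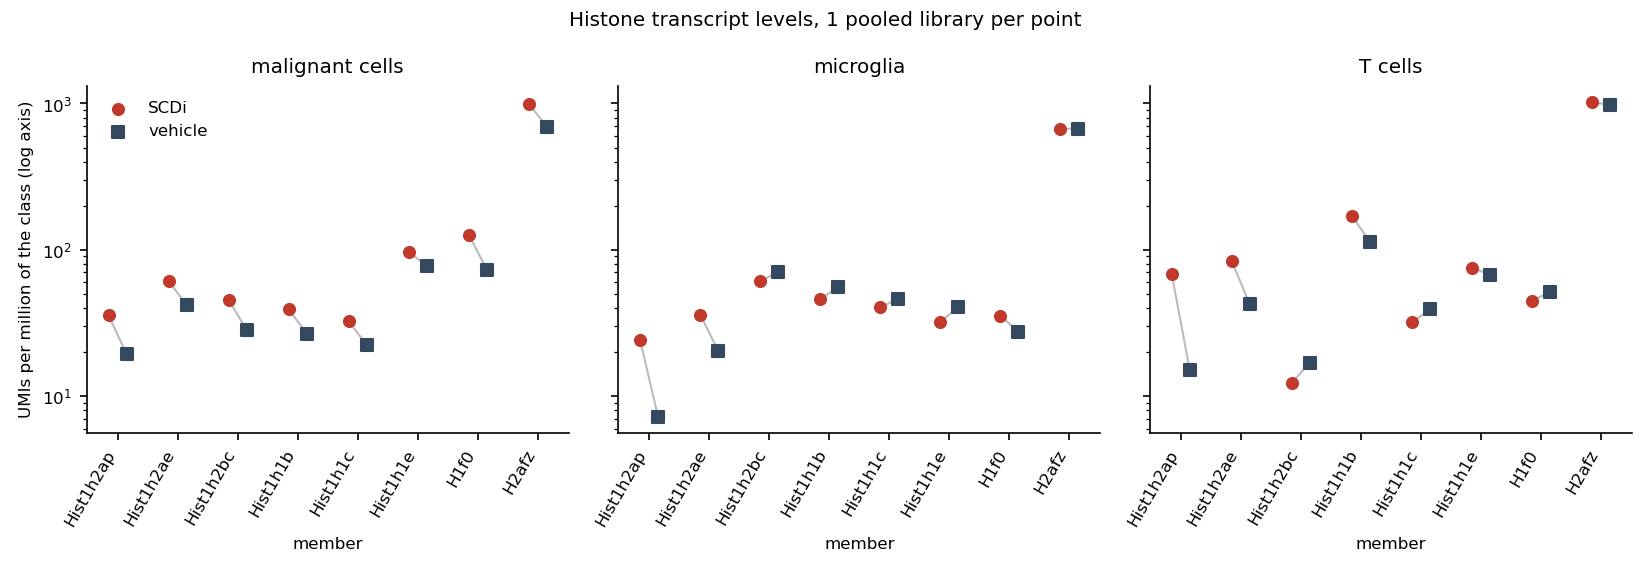
Level of each histone transcript (CPM of the class, log axis) in malignant cells, microglia and T cells, SCDi beside vehicle, 1 pooled library per point. In malignant cells all 8 points of SCDi lie above those of vehicle, while in microglia and T cells Hist1h2ap and Hist1h2ae are above and Hist1h2bc and Hist1h1c below.

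The messages were also detected in a larger share of cells. After thinning every cell to 2000 UMIs, which 7078 SCDi and 6103 vehicle malignant cells reached, Hist1h2ap was detected in 6.23% (5.68 to 6.82) of SCDi cells and 3.59% (3.14 to 4.09) of vehicle cells. Without thinning the shares were 46.9% in SCDi and 33.2% in vehicle. Thinned shares of the other 7 were also higher in SCDi, with H1f0 in 19.9% of SCDi and 13.4% of vehicle cells and H2afz in 81.0% of SCDi and 66.2% of vehicle cells. Neutrophils, which do not divide and give a measure of free RNA, had a thinned Hist1h2ap share of 0 of 52 cells in SCDi and 0 of 72 in vehicle, with exact upper bounds of 6.85% and 4.99%, at median depths of 4661 and 3670 UMIs. The neutrophils come from the immune libraries, and the bounds are above the malignant shares, so they do not set those shares apart from free RNA.

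At 10000 UMIs per cell the Hist1h2ap message remained sparse, with at most 5 UMIs in any SCDi malignant cell and a share of 23.9% of SCDi and 13.4% of vehicle cells with a UMI. The 10% of cells with the most Hist1h2ap held 59.3% of its UMIs in SCDi and 80.9% in vehicle. H2afz was spread more evenly, with a UMI in 99.2% of SCDi and 96.1% of vehicle cells at that depth.

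In microglia, the resident macrophages of the brain, the 8 transcripts did not move together. Hist1h2ap had 24.1 CPM in SCDi microglia and 7.18 CPM in vehicle microglia, from 306 and 85 UMIs, a log2 ratio of 1.74 (1.39 to 2.11). These UMIs came from 54 of 480 SCDi cells and 36 of 390 vehicle cells. The microglia were spread unevenly over their clusters, with 242 SCDi and 141 vehicle cells in cluster 12 and 190 SCDi and 199 vehicle cells in cluster 11. Hist1h2ae had 36.1 CPM in SCDi and 20.4 CPM in vehicle, a log2 ratio of 0.82 (0.60 to 1.06). The other core gene and the clustered linkers lay below 0. The log2 ratio was -0.21 (-0.35 to -0.07) for Hist1h2bc, -0.27 (-0.43 to -0.10) for Hist1h1b, -0.19 (-0.37 to -0.02) for Hist1h1c and -0.33 (-0.52 to -0.14) for Hist1h1e. H1f0 had 35.3 CPM in SCDi and 27.5 CPM in vehicle, a log2 ratio of 0.36 (0.15 to 0.57), and H2afz was at 673 CPM in SCDi and 672 CPM in vehicle.

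In all, 4 of the 8 were higher in SCDi microglia, 3 of them by at least 1.2-fold, beside 47.4% and 4.81% of 6652 genes. Mki67, which encodes the proliferation antigen Ki-67, was at 90.5 CPM in SCDi microglia and 88.3 CPM in vehicle microglia, a log2 ratio of 0.04 (-0.09 to 0.16). Top2a, a topoisomerase of dividing cells, was at 128 CPM in SCDi microglia and 103 CPM in vehicle microglia, a log2 ratio of 0.31 (0.20 to 0.42). One of these proliferation genes was therefore within counting error of no difference and the other was higher in SCDi. Of the S phase genes, 7 of 41 were higher in SCDi microglia with a median log2 ratio of -0.15, and of the G2 and mitosis genes 32 of 50 were, with a median of 0.06, where 46.6% of 10204 genes with at least 5 CPM were higher.

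In T cells, Hist1h2ap had 67.9 CPM in SCDi and 15.1 CPM in vehicle, from 694 and 211 UMIs, a log2 ratio of 2.17 (1.94 to 2.40). Hist1h2ae had 83.4 CPM in SCDi and 42.4 CPM in vehicle, a log2 ratio of 0.98 (0.83 to 1.13), and Hist1h1b had 170 CPM in SCDi and 114 CPM in vehicle, a log2 ratio of 0.58 (0.48 to 0.68). Both are S-phase histones. Hist1h1e was at 75.6 CPM in SCDi and 67.3 CPM in vehicle and H2afz at 1028 CPM in SCDi and 971 CPM in vehicle, log2 ratios of 0.17 and 0.08. Hist1h2bc, Hist1h1c and H1f0 were lower in SCDi T cells, with log2 ratios of -0.46 (-0.78 to -0.14), -0.29 (-0.50 to -0.09) and -0.21 (-0.38 to -0.04).

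So 5 of the 8 were higher in SCDi T cells, 3 by at least 1.2-fold, beside 44.8% and 11.1% of 6865 genes. Hist1h2bc was under 20 CPM in both T cell libraries and is counted among the 8 but not among the genes. Mki67 was at 151 CPM in SCDi and 159 CPM in vehicle T cells, a log2 ratio of -0.07 (-0.17 to 0.02). S phase genes were higher in SCDi for 39 of 42, with a median log2 ratio of 0.34, and G2 and mitosis genes for 18 of 51, with a median of -0.06, where 44.4% of 10065 genes were higher. Hist1h2ap, Hist1h2ae, Hist1h1b and most S phase genes were thus higher in SCDi T cells, and Hist1h2bc and Hist1h1c lower. A link between the histone and S phase genes was not tested. The T cell class mixed 4 clusters. Cluster 20, whose leading genes include Hist1h1b and Rrm2, held 79 of 382 SCDi and 97 of 599 vehicle cells, and the Foxp3 cluster held 57 of 382 SCDi and 165 of 599 vehicle cells. As a mean over the T cell clusters the Hist1h2ap log2 ratio was 1.34, beside 2.17 over the class.

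Hist1h2ap was also higher in SCDi in natural killer cells, macrophages, monocytes, B cells and type 2 conventional dendritic cells. Natural killer cells had 88 Hist1h2ap UMIs in SCDi and 7 in vehicle, a log2 ratio of 3.43 (2.42 to 4.88), but the UMIs came from 13 of 239 SCDi cells and 4 of 263 vehicle cells, and after thinning 2 of 223 SCDi and 1 of 244 vehicle cells had one. Macrophages had 100 in SCDi and 13 in vehicle, a log2 ratio of 2.57 (1.78 to 3.58), and monocytes 40 in SCDi and 13 in vehicle, 1.60 (0.70 to 2.66). B cells had 108 in SCDi and 32 in vehicle, 1.80 (1.24 to 2.43). These 4 intervals lie above 0. Type 2 conventional dendritic cells had 17 UMIs in SCDi and 3 in vehicle, 2.45 (0.84 to 5.04), migratory dendritic cells 14 in SCDi and 11 in vehicle, 1.16 (-0.07 to 2.45), plasmacytoid dendritic cells 5 in SCDi and 0 in vehicle, and neutrophils 1 in each. In migratory dendritic cells and neutrophils no direction can be read. The plasmacytoid interval starts just above 0, at 0.04, but rests on 5 UMIs. Unnamed immune clusters are outside the classes and their sums. Cluster 18 of them, led by Pclaf, Birc5, Tk1 and Cdk1, held 82 SCDi and 115 vehicle cells. It had 237 Hist1h2ap UMIs in SCDi and 34 in vehicle, 96.9 and 25.2 CPM, a log2 ratio of 1.92. Hist1h2ae was also higher there in SCDi, at 0.50, and the other histone genes followed were lower. Hist1h2ap was higher in SCDi in unnamed clusters 2, 14 and 26, and cluster 21 had 0 UMIs in SCDi and 1 in vehicle.

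B cells were the other class in which all 8 genes were higher in SCDi, where 43.1% of 6740 genes were, and there Mki67 was higher too, at 106 CPM in SCDi and 38.6 CPM in vehicle, a log2 ratio of 1.45 (1.15 to 1.76). The Hist1h1b interval in B cells, -0.08 to 0.46, crosses 0. Few B cells carried these UMIs, with Hist1h2ae in 13 of 153 SCDi and 17 of 188 vehicle cells. After thinning, Mki67 was in 5 of 146 SCDi and 3 of 179 vehicle B cells. Thinned shares of Hist1h1b, Hist1h1c and Hist1h1e were lower in SCDi B cells, and those of the other histone genes higher. In natural killer cells 5 of 8 were higher, beside 45.6% of 6826 genes, and in monocytes 5 of 8, beside 44.6% of 5526 genes. In macrophages 3 of 8 were higher, beside 47.5% of 6156 genes, and 2 linkers were lower, Hist1h1c at 15.3 CPM in SCDi and 24.4 CPM in vehicle, -0.67 (-0.83 to -0.52), and Hist1h1e at 12.9 CPM in SCDi and 23.0 CPM in vehicle, a log2 ratio of -0.83. Hist1h1c was lower in SCDi in 5 of 6 immune classes (macrophages, microglia, monocytes, T, natural killer and B cells), B cells being the exception. H1f0 was higher in SCDi in 4 of these 6, and also in migratory dendritic cells, at 0.63 (0.40 to 0.86), and plasmacytoid dendritic cells, at 0.76 (0.12 to 1.42). H2afz lay between -0.30 and 0.24 in the 10 immune classes, against 0.51 in malignant cells.

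**Figure D2:**
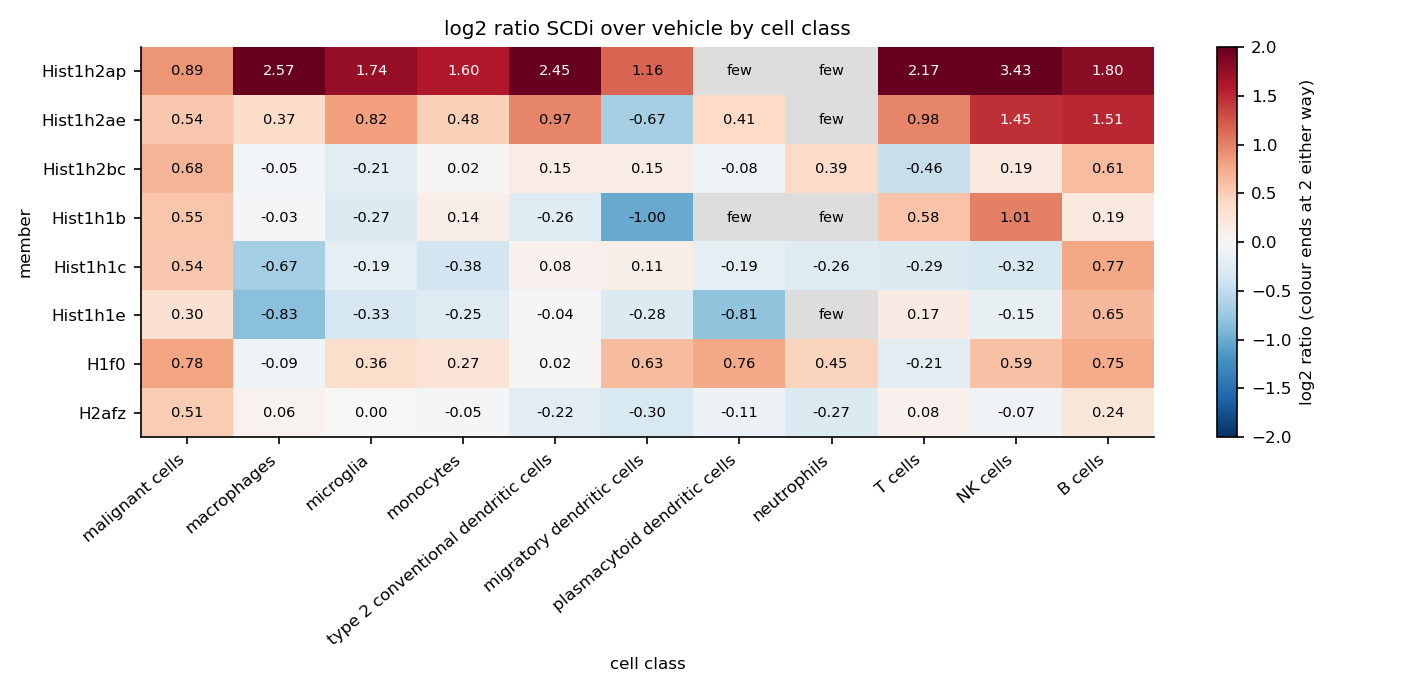
log2 ratio of SCDi over vehicle for each histone transcript (vertical) in each cell class (horizontal), with colour ending at 2 in either direction. Grey cells marked few had too few UMIs for a ratio. Hist1h2ap has a positive ratio in all 9 classes with a value, and the malignant and B cell columns are the ones with 8 positive values.

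Across the same 6 immune classes, 13304 genes had at least 100 UMIs in all, and 724 of them were higher in SCDi in every class. Ordered by their lowest ratio over the 6 classes, an ordering chosen after the values were seen, Hist1h2ap came 1st, with 1336 UMIs in SCDi and 361 in vehicle and log2 ratios from 1.60 to 3.43. Gm10076 came next, with a lowest log2 ratio of 1.10, and these were the 2 genes at least 2-fold higher in all 6. Hist1h2ae came 21st, from 0.37 to 1.51, while the other 6 histone genes were not on one side of 0 in all 6 classes. The immune cells are the DAPI-/CD45+/GFP- sort, so the 6 classes share the same pair of libraries and are not independent of each other.

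As Hist1h2ap was chosen for its ratio, the rest of its family is given beside it as a description. The other 16 replication-dependent H2A genes, Hist1h2ae left out, summed to 5840 UMIs in SCDi and 5565 UMIs in vehicle over the immune classes, a log2 ratio of 0.05 (-0.00 to 0.10). Most of that sum was Hist3h2a, with 4253 UMIs in SCDi and 4062 in vehicle, while Hist2h2aa1 was at 0.65 (0.26 to 1.05) and Hist1h2ae at 0.72 (0.61 to 0.82) over the same classes. Hist1h2ac ran the other way there, with 316 UMIs in SCDi and 388 in vehicle, a log2 ratio of -0.31 (-0.53 to -0.10). In malignant cells the other 16 genes summed to 15698 UMIs in SCDi and 12265 in vehicle, a log2 ratio of 0.27 (0.24 to 0.31). For every 100 UMIs of Hist1h1b, microglia had 52.2 of Hist1h2ap in SCDi and 12.9 in vehicle, T cells 39.95 in SCDi and 13.3 in vehicle, and natural killer cells 110 in SCDi and 19.4 in vehicle. Malignant cells had 91.4 in SCDi and 72.4 in vehicle, the smallest difference in this proportion among the classes given here. For every 100 UMIs of Hist1h2ae, the other clustered H2A gene, the numbers were 66.8 in SCDi and 35.3 in vehicle for microglia, 58.5 in SCDi and 46.2 in vehicle for malignant cells and 43.0 in SCDi and 34.8 in vehicle for B cells. In malignant SCDi cells there were 409103 Krt8 UMIs to 10410 of Hist1h2ap. Natural killer cells in SCDi held 6 Krt8 UMIs to 88 of Hist1h2ap, and microglia in SCDi 6 to 306.

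A cell was called Mki67-positive if at least 1 of 2000 UMIs drawn from it was Mki67. In malignant cells 485 of 7078 SCDi cells, 6.85% (6.27 to 7.47), and 268 of 6103 vehicle cells, 4.39% (3.89 to 4.94), were positive. The shares were 6.89% in SCDi and 8.79% in vehicle for microglia, from 33 and 34 positive cells, and 11.5% in SCDi and 13.2% in vehicle for T cells, from 43 and 75. Every other class had under 20 positive cells in a library and was not split.

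Within each malignant library, 7 of the 8 histone transcripts were at a higher level in Mki67-positive than in Mki67-negative cells, where 65.2% of genes were in SCDi and 67.5% in vehicle. Hist1h1e had 154 CPM in positive and 91.8 CPM in negative SCDi cells, a log2 ratio of 0.75 (0.69 to 0.80), and Hist1h1b had 61.3 CPM in positive and 37.4 CPM in negative SCDi cells, 0.71 (0.63 to 0.80). In vehicle cells the same ratios were 0.95 for Hist1h1e and 0.92 for Hist1h1b. Hist1h2ap had 45.1 CPM in positive and 35.03 CPM in negative SCDi cells, a log2 ratio of 0.37 (0.27 to 0.46), and 35.3 CPM in positive and 18.5 CPM in negative vehicle cells, 0.93 (0.79 to 1.07). The ratio of positive to negative cells was smaller in SCDi, and the intervals of the libraries do not overlap. H1f0 and H2afz differed less, by 0.16 and 0.11 in SCDi and by 0.41 and 0.38 in vehicle. Hist1h2bc ran the other way, at 36.5 CPM in positive and 46.1 CPM in negative SCDi cells, -0.34 (-0.45 to -0.23), and at -0.26 (-0.43 to -0.10) in vehicle.

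In microglia and T cells the split was wider. In microglia 7 of the 8 were higher in positive cells in SCDi, where 54.5% of genes were, and 8 of 8 in vehicle, where 52% were. In T cells 7 of 8 were in each library, where 54.5% of genes were in SCDi and 49.6% in vehicle, Hist1h2bc being the exception. Mki67-positive microglia had 94.5 CPM of Hist1h2ap and negative ones 12.4 CPM in SCDi, a log2 ratio of 2.93 (2.60 to 3.27), with 22.9 CPM and 4.78 CPM in vehicle, 2.27 (1.60 to 2.91). Mki67-positive T cells had 151 CPM and negative ones 44.1 CPM in SCDi, 1.77 (1.55 to 1.99), with 45.0 CPM and 7.18 CPM in vehicle, 2.64 (2.23 to 3.07). Positive cells of both classes were also deeper, with medians of 51641 UMIs against 16877 in SCDi microglia and 45384 against 16410 in SCDi T cells.

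Between libraries, the difference was present in Mki67-positive and in Mki67-negative cells. Among malignant cells Hist1h2ap had 45.1 CPM in SCDi and 35.3 CPM in vehicle positive cells, a log2 ratio of 0.35 (0.19 to 0.52). Negative cells had 35.03 CPM in SCDi and 18.5 CPM in vehicle, 0.92 (0.87 to 0.97). All 8 genes were at least 1.2-fold higher in SCDi in negative cells, where 5.23% of genes were, and 5 of 8 in positive cells, where 3.24% were. Hist1h1e was at 0.10 (0.01 to 0.18) and Hist1h1c at 0.19 (0.03 to 0.35) in positive cells, and H2afz at 0.26 (0.23 to 0.29). Hist1h2bc differed least between the kinds of cell, at 0.62 (0.43 to 0.81) in positive and 0.69 (0.65 to 0.73) in negative cells.

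Holding the share of Mki67-positive malignant cells at that of vehicle left the Hist1h2ap log2 ratio at 0.88, beside 0.89 over the same cells as they were. Hist1h1e moved to 0.28, beside 0.30, and H2afz stayed at 0.51. After thinning, 6.85% of SCDi and 4.39% of vehicle malignant cells were called positive. Hist1h2ap was 0.37 higher in log2 ratio in positive than in negative SCDi cells. Holding so small a share could therefore move the ratio only slightly, and the near-unchanged values are not read as a result on dividing cells. Hist1h2ap in microglia was at 2.03 (1.52 to 2.60) in positive and 1.37 (0.89 to 1.88) in negative cells, and in T cells at 1.74 (1.45 to 2.04) in positive and 2.61 (2.26 to 2.99) in negative cells. Mki67-negative SCDi T cells held 349 Hist1h2ap UMIs, while SCDi T cells with no Mki67 or Top2a UMI at all held 7. The share of positive cells depends on depth, and 57.2% of SCDi and 43.1% of vehicle malignant cells had a Mki67 UMI among all their UMIs. With positivity defined that way the adjusted ratio was 0.75.

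**Figure D3:**
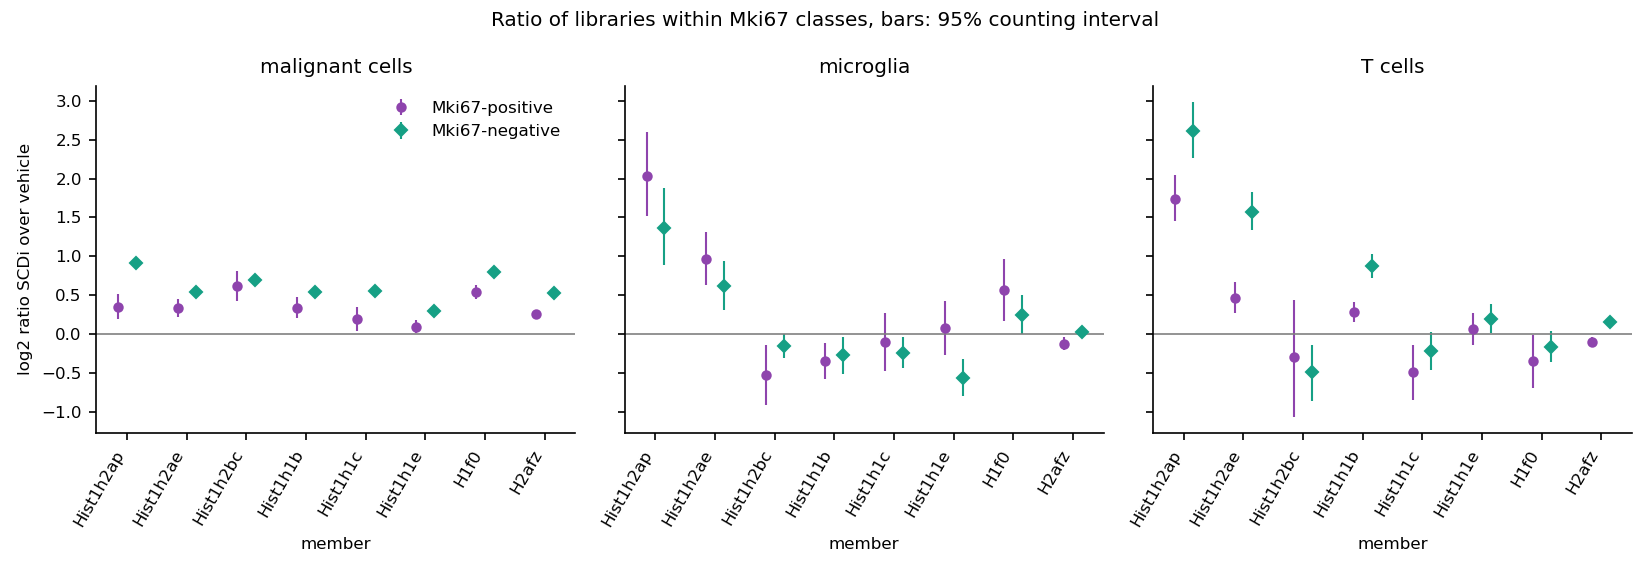
log2 ratio of SCDi over vehicle for each histone transcript within Mki67-positive and within Mki67-negative cells of malignant cells, microglia and T cells, with bars for the 95% counting interval. In malignant cells each of the 8 ratios is lower in Mki67-positive than in Mki67-negative cells, with Hist1h2ap at 0.35 in positive and 0.92 in negative cells.

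Finer steps of Mki67 were set on malignant cells thinned to 10000 UMIs. Hist1h2ap was at 32.2, 46.0 and 44.2 CPM in SCDi cells with 0, 1 and 2 to 4 Mki67 UMIs, from 5167, 1380 and 423 cells. In vehicle cells it was at 16.05, 32.9 and 35.9 CPM, from 4954, 808 and 239 cells. The step from 0 to 1 Mki67 UMI was larger than any later one in both libraries, and cells with 5 or more numbered 8 in SCDi and 5 in vehicle, too few to read. Hist1h1e was at 78.3, 141 and 161 CPM over the same steps in SCDi and at 64.3, 130 and 159 CPM in vehicle. Hist1h2bc went down over the same steps, at 47.7, 40.4 and 33.9 CPM in SCDi and 28.9, 28.2 and 19.4 CPM in vehicle.

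Malignant cells were also placed by the summed UMIs of 42 S phase genes and of 51 G2 and mitosis genes, with cuts of 20 and 45 UMIs per 10000 and 1661 of 12984 cells within 1 UMI of a cut. Cells low in both made up 23.9% of SCDi and 43.4% of vehicle cells. Cells high in S alone made up 19.2% of SCDi and 15.7% of vehicle, those high in both 36.8% of SCDi and 23.8% of vehicle, and those high in G2 and mitosis alone 20.1% of SCDi and 17.1% of vehicle. The SCDi library therefore held a larger share of cells with cell cycle transcripts.

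Hist1h2ap had 7.73 CPM in SCDi and 2.23 CPM in vehicle cells low in both, a log2 ratio of 1.79 (1.57 to 2.02). It had 22.5 CPM in SCDi and 10.5 CPM in vehicle in cells high in S alone, 1.09 (0.94 to 1.25). In cells high in both it had 54.4 CPM in SCDi and 43.0 CPM in vehicle, 0.34 (0.28 to 0.40), and in cells high in G2 and mitosis alone 43.1 CPM in SCDi and 28.4 CPM in vehicle, 0.60 (0.51 to 0.70). The level was highest in cells high in both sums in each library, and the ratio between libraries was highest where the level was lowest. Hist1h1b had the same order of levels, with 3.84 CPM in SCDi and 1.87 CPM in vehicle in cells low in both and 69.0 CPM in SCDi and 65.1 CPM in vehicle in cells high in both, where its log2 ratio was 0.08 (0.03 to 0.14).

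Hist1h1e differed less between libraries within these groups, at 0.12 (0.02 to 0.21) in cells low in both, 0.22 (0.14 to 0.31) in cells high in S alone, -0.06 (-0.09 to -0.02) in cells high in both and -0.01 (-0.07 to 0.04) in cells high in G2 and mitosis alone. H1f0 and Hist1h2bc differed in every group. H1f0 was between 0.52 and 0.81 and Hist1h2bc between 0.63 and 0.88. Hist1h2bc was at its highest level in cells low in both sums, at 61.0 CPM in SCDi and 34.999 CPM in vehicle, the reverse of the S-phase genes. Holding the shares of the 4 groups at those of vehicle, a step added after the values were seen, left log2 ratios of 0.59 for Hist1h2ap, 0.23 for Hist1h2ae, 0.19 for Hist1h1b and -0.00 for Hist1h1e, beside 0.88, 0.54, 0.55 and 0.30 for the same cells as they were. It left 0.68 for H1f0, 0.40 for H2afz and 0.42 for Hist1h1c, beside 0.78, 0.51 and 0.54, and 0.79 for Hist1h2bc, beside 0.68.

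**Figure D4:**
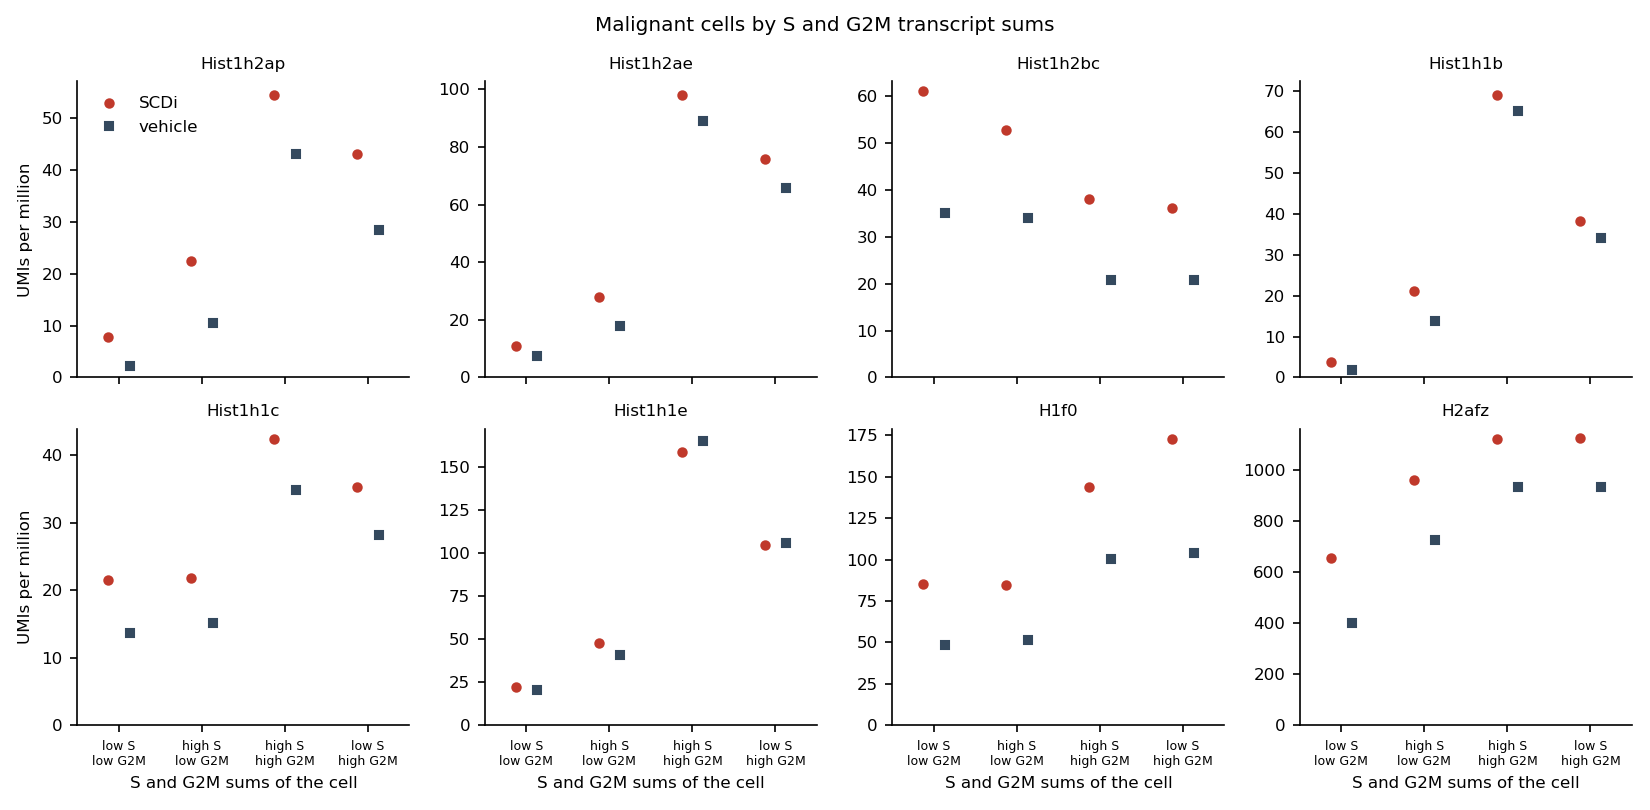
Level of each histone transcript (CPM) in malignant cells grouped by low or high sums of S phase and of G2 and mitosis genes, SCDi left of vehicle in each group. Hist1h2ap, Hist1h2ae, Hist1h1b and Hist1h1e peak in cells high in both, Hist1h2bc in cells low in both, and the log2 ratio of Hist1h1e lies between -0.06 and 0.22 in the groups.

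Cells without a single Mki67 or Top2a UMI among all their UMIs were looked at on their own, a choice made after the values were seen. In malignant cells, 695 SCDi and 1192 vehicle cells had none, at median depths of 29332 and 34896.5 UMIs, and they held 66 Hist1h2ap UMIs in SCDi and 53 in vehicle, a log2 ratio of 1.34 (0.80 to 1.90). Hist1h2bc had 62.4 CPM in SCDi and 30.3 CPM in vehicle in these cells, 1.04 (0.93 to 1.15), Hist1h1c was at 1.06 (0.86 to 1.26) and H1f0 at 0.77 (0.67 to 0.87). Thus 7 of 8 were higher in SCDi, where 46.8% of genes were, and Hist1h1e was at -0.14 (-0.34 to 0.06). T cells without Mki67 or Top2a held 7 Hist1h2ap UMIs in each library, from 231 SCDi and 339 vehicle cells, 0.46 (-1.28 to 2.20), so a difference was not detectable there at this depth. Microglia without them held 10 in SCDi and 2 in vehicle, 1.80 (-0.18 to 5.29). Of 694 Hist1h2ap UMIs in SCDi T cells and 306 in SCDi microglia, all but 7 and 10 were in cells with a Mki67 or Top2a UMI.

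The 2 libraries did not share their malignant clusters evenly. The clusters with most vehicle cells were 0, 1 and 8, and SCDi cells were mostly in 3, 5, 6, 4, 9 and 0. Over the 12 malignant clusters for which each library gave 50 cells or more, H1f0 was higher in SCDi in 12, with a mean log2 ratio of 0.54 and a range of 0.22 to 1.43. H2afz was higher in 11, Hist1h1c in 10, Hist1h2ap and Hist1h2bc in 9 each, Hist1h2ae in 7, Hist1h1b in 6 and Hist1h1e in 5. The 12 clusters share the same pair of libraries and are not independent of each other. Such counts were not made for other genes, of which 42.9% were higher in SCDi over all malignant cells. The mean over clusters was 0.68 for Hist1h2ap, 0.51 for Hist1h2bc, 0.39 for Hist1h1c, 0.28 for H2afz, 0.09 for Hist1h2ae, 0.07 for Hist1h1b and 0.04 for Hist1h1e. For Hist1h2ap, 1 of the 9 rests on 1 UMI in SCDi and 0 in vehicle, and without that cluster 8 of 11 were higher with a mean of 0.51. In cluster 0, whose leading genes include Depdc1b, Kif11 and Hist1h3c, Hist1h2ap was at 61.3 CPM in SCDi and 37.4 CPM in vehicle. In cluster 3, led by Ube2c, Hist1h2ap and Birc5, it was at 48.3 CPM in SCDi and 36.4 CPM in vehicle, while Hist1h2ae there was at 48.6 CPM in SCDi and 57.8 CPM in vehicle.

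**Figure D5:**
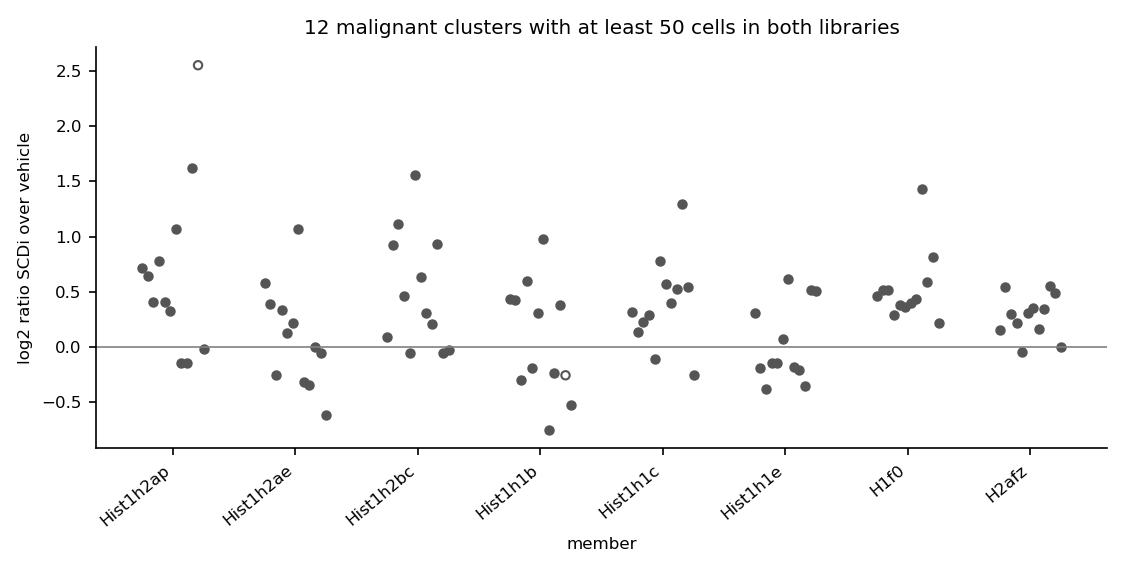
log2 ratio of SCDi over vehicle for each histone transcript in 12 malignant clusters, 1 point per cluster, with open points where both libraries together gave under 10 UMIs. The H1f0 points are all above 0, from 0.22 to 1.43, while those of Hist1h1e fall on both sides.

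The rest of the histone family leaned the same way in malignant cells. Of 75 other histone genes found by symbol, 16 had at least 5 CPM in either library, and 14 of these were higher in SCDi, with a median log2 ratio of 0.28, where 41.7% of 9470 genes were higher with a median of -0.04. The highest of the 16 were replication-dependent genes under 20 CPM, named after their values were seen, with log2 ratios of 0.71 for Hist1h1a, 0.58 for Hist2h2bb and 0.49 for Hist1h2be. Among those with at least 20 CPM the highest were H3f3b, a replacement H3.3 gene, at 1399.5 CPM in SCDi and 1046.8 CPM in vehicle, Cenpa, the centromeric H3, and H2afx, the variant phosphorylated at DNA breaks, with log2 ratios of 0.42, 0.41 and 0.34. The lowest were H2afy, which encodes macroH2A, at -0.06, H3f3a at -0.02 and H2afj at 0.09. With histone genes left out, chromosome 13 had a median log2 ratio of -0.02 over 221 genes, beside -0.03 over the 6350 genes. Chromosome 15, which holds H1f0, had 0.04 over 262 genes, and chromosome 3, which holds H2afz, -0.04 over 307 genes.

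Around the 8 genes, genes that process and carry histones differed less between the libraries. Over all genes with at least 5 CPM, 41.7% were higher in SCDi malignant cells, with a median log2 ratio of -0.04. Slbp, which binds the stem-loop, was at 72.0 CPM in SCDi and 55.9 CPM in vehicle malignant cells, a log2 ratio of 0.36 (0.33 to 0.39). It led the histone mRNA processing list, in which 15 of 21 genes were higher with a median of 0.04, and Tut7, a uridylyl transferase, was the lowest at -0.18 (-0.22 to -0.14). Of 27 histone chaperones 16 were higher, with a median of 0.10, led by Nasp, an H1 and H3 chaperone, at 0.34 and Asf1b at 0.32. In contrast, 41 of 42 S phase genes and 50 of 51 G2 and mitosis genes were higher in SCDi malignant cells, with medians of 0.23 and 0.33. Of the quiescence and cell cycle exit list 6 of 18 were higher, with a median of -0.11, and Btg2, an antiproliferative gene, was the lowest at -0.54 (-0.63 to -0.46). The highest S phase gene was Dscc1, a clamp loader subunit, at 0.53 (0.45 to 0.60), and the highest G2 and mitosis gene Cdca3, at 0.50 (0.47 to 0.52). The point values of 6 of the 8 histone genes lay above both, those of H2afz and Hist1h1e being the exceptions, at 0.51 and 0.30. As the 8 genes were chosen with this contrast known, that order is a description only.

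Over 22 profiles, 11 cell classes in each treatment, the genes most like Hist1h2ap by Pearson correlation of log2(CPM + 1) were Hist1h2ae at 0.898, Tacc3 at 0.897, Ccnb1 at 0.889, Ccna2 at 0.887 and Dlgap5 at 0.879, among 9903 genes. Tacc3, Ccnb1, Ccna2 and Dlgap5 act in G2 and mitosis. Profiles of the same sort and treatment share a library, so these values describe the profiles. From cell to cell in malignant cells thinned to 10000 UMIs, Spearman's rho of Hist1h2ap was 0.36 with Hist1h2ae, 0.27 with the G2 and mitosis sum and 0.09 with Mki67 over 6978 SCDi cells, and 0.33, 0.32 and 0.14 over 6006 vehicle cells. Such values are held down by the sparse counts. H2afz, the most abundant message among the 8 in UMIs, had 0.40 with the G2 and mitosis sum in SCDi and 0.63 in vehicle, and Hist1h2bc had -0.13 in SCDi and -0.06 in vehicle.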

How the data were processed

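The 4 droplet 3′ libraries were read as the authors' deposited matrices of UMI counts per gene and barcode, made with Cell Ranger 7.1.0 on mm10 per the submitters' processing notes; the sources used here do not give the annotation version or the use of intronic reads. Barcodes with at least 300 genes and at most 15% mitochondrial UMIs were kept. Doublets were scored against simulated pairs, and the highest-scoring 0.8% per 1000 barcodes were removed. Cells of each sort were clustered with Leiden (leidenalg 0.10.2, resolution 1) on 30 principal components of 2000 variable genes without histone genes, using numpy 2.4.6, scipy 1.17.1, pandas 2.3.3 and scikit-learn 1.9.0 in Python 3.11.15. A cluster was named from at least 3 markers, and low-depth clusters without a marker among their leading genes were left unnamed, as were 1003 SCDi and 996 vehicle immune cells and 1137 SCDi and 846 vehicle tumour cells in all. That naming rule was set after the clusters were seen.

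UMIs were summed over the cells of a class and scaled to the UMIs of the class (CPM, per 1000000 UMIs). The log2 ratio added 0.5 to each sum, and its interval is the exact conditional binomial 95% interval. Shares carry exact Clopper-Pearson intervals. The ratio step was tested on simulated data. Depth varied from 135851178 to 329888529 UMIs per library. The 8 genes and all gene lists were chosen with earlier results of these data known. Named besides them are the extremes of each list, the 3 highest and lowest other histone genes with at least 20 CPM, and the 5 genes most like Hist1h2ap. Other choices of filter, doublet removal, clustering, scaling, averaging, thinning and Mki67 definition were tried.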

Additional observations from a re-analysis of the deposited data

Results flagged for a closer look

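For 5 of the 8 genes the difference between SCDi and vehicle pointed one way in malignant cells and the other way in microglia or T cells. With 1 library per group the difference between the classes was not tested. The share of all genes with such opposite directions was not counted, so the number is not read as a trait of histone genes. Of genes with at least 20 CPM, 42.9% were higher in SCDi in malignant cells, 47.4% in microglia and 44.8% in T cells. Hist1h2bc, an H2B gene, was higher in SCDi malignant cells and had log2 ratios of -0.21 in microglia and -0.46 in T cells. Hist1h1c, the H1.2 gene, was likewise higher in SCDi malignant cells, with -0.19 in microglia and -0.29 in T cells. Hist1h1b and Hist1h1e were higher in SCDi in malignant cells and in T cells, with -0.27 and -0.33 in microglia. H1f0 was higher in SCDi in malignant cells and in microglia, with -0.21 in T cells. Malignant cells and immune cells come from separate sorts and libraries. Mki67 was also higher in SCDi in malignant cells (log2 ratio 0.46) and within counting error of 0 in microglia (0.04) and T cells (-0.07), and its part in these opposite directions was not tested.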

How the results depend on the processing

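No paired analysis was possible because each group has 1 library and the labels give no replicate numbers. Under other filters, doublet removal, clustering, scaling and averaging the Hist1h2ap log2 ratio stayed above 0, from 0.68 to 0.97 in malignant cells, 1.63 to 2.23 in microglia and 1.34 to 2.30 in T cells, and 8, 3 to 4 and 4 to 5 of the 8 genes were higher in SCDi. For Hist1h2ap, the values that moved by more than counting error were, as means of each cell's own CPM, 0.97 in malignant cells, 1.89 in T cells and 0.96 at the vehicle Mki67 share, and, as means over clusters, 0.68, 2.23 and 1.34 in malignant cells, microglia and T cells. At the vehicle Mki67 share it was 0.81 with positivity by Mki67 or Top2a and 0.75 by any Mki67 UMI. Among alternatives chosen after seeing the data, clusters with at least 20% of cells from each library (9 of 15) gave 0.79 in malignant cells. Cells with no Mki67 or Top2a UMI gave 1.34 in malignant cells and 0.46 in T cells, with 2 of 8 genes higher in microglia (47.7% of genes) and 2 of 8 in T cells (42.4%). In those cells the sign turned for Hist1h1e in malignant cells (-0.14), for H1f0 (-0.092) and H2afz (-0.19, beside 0.00 in all cells) in microglia and for Hist1h1b (-0.50), Hist1h1e (-0.60) and H2afz (-0.18) in T cells. Hist1h1e in T cells also turned as a mean of each cell's CPM (-0.023) and as a mean over clusters (-0.12). Of 318 values of single histone genes, 137 moved by more than counting error. That count also holds the Mki67 splits and the detection shares at other depths, which change with depth. Of the log2 ratios between libraries for genes besides Hist1h2ap, 30 of 84 moved so in malignant cells, 13 of 77 in microglia and 17 of 77 in T cells. Among them, Hist1h1b in microglia was at -0.07 without doublet removal and -0.72 as a mean over clusters, beside -0.27, and H1f0 in microglia at 0.10 as a mean of each cell's CPM, beside 0.36. H2afz in microglia was at -0.14 as a mean of each cell's CPM and -0.13 as a mean over clusters. The cause was not tested. The other histone genes kept a median of 0.27 to 0.35 under other filters. Depth limits most the classes with under 20 Hist1h2ap UMIs and the cells with no Mki67 or Top2a UMI.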
